A study of Mus musculus with 5 samples.

Results

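The genes described here are 43 genes of DNA replication and mitosis, taken by name from the annotation of the array and split by their known roles into 23 S phase genes, 3 genes of the step from G1 into S phase and 17 mitosis genes. A probe was named for 38 of them, out of 16593 genes with a named probe, and 31 were detected on at least 1 array, out of 8138 detected genes. The detected genes were 18 of the S phase genes, 2 of the G1 to S genes and 11 of the mitosis genes. They were measured in cultures of E3 mouse epiblast stem cells, pluripotent cells taken from the epiblast after implantation, with 1 culture and 1 bead array per condition. All 5 cultures had grown on inactivated CF1 mouse embryonic fibroblasts in KSR medium with 5 ng/ml FGF2, and for the last 12 h the medium was exchanged for one in which FGF2 was not listed. That medium held no agent (untreated), 1 µM PD0325901 (PD, an inhibitor of the kinase MEK), 3 µM CHIR99021 (CH, an inhibitor of the kinase GSK3), 1000 U/ml leukemia inhibitory factor (LIF, a cytokine that acts through STAT3), or all 3 agents at those doses (PCL). The comparison asked whether replication genes and mitosis genes stood at other levels under each agent, and whether they did so together.

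A dividing cell copies its DNA in S phase and separates the copies in mitosis, and many of the proteins for each step are transcribed only when that step comes near. S phase genes are driven largely by E2F transcription factors as cells leave G1, while mitosis genes are held down by the DREAM complex at an element called CHR, often beside CCAAT boxes bound by NF-Y, and are switched on later in G2. Pluripotent stem cells divide fast with a short G1 phase, so cells in S phase make up much of such a culture.

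The promoters of 2 S phase genes and 2 mitosis genes are shown, chosen after their values were seen, because these elements can be read in them and the genes are described in detail with the results. The sequences are those of RefSeq on the build GRCm38.p6, from 250 bases before to 50 bases after the annotated start, written 5′ to 3′ on the strand of the gene. Capitals mark the letters of 3 motifs searched on both strands: E2F (TTTGGCGC, TTTCCCGC, TTTCGCGC or TTTGCCGC), CHR (TTTGAA or TTCGAA) and CCAAT, which reads ATTGG on the other strand. Mcm6 lies at chr1:128359656-128359955 on the minus strand, Mcm5 at chr8:75109259-75109558 on the plus strand, Cdk1 at chr10:69352863-69353162 on the minus strand and Cdc20 at chr4:118437294-118437593 on the minus strand.
Mcm6: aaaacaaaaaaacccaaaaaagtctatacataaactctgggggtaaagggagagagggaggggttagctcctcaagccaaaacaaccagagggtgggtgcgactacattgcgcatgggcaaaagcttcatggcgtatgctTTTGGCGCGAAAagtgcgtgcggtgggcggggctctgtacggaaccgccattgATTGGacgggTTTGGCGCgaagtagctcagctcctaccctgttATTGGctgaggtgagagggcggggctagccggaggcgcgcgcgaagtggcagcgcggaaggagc
Mcm5: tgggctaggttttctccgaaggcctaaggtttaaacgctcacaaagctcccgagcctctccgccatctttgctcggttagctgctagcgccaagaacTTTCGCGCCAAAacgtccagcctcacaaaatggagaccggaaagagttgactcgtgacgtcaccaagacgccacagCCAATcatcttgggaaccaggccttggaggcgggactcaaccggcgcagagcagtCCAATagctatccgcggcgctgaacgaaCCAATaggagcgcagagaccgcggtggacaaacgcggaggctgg
Cdk1: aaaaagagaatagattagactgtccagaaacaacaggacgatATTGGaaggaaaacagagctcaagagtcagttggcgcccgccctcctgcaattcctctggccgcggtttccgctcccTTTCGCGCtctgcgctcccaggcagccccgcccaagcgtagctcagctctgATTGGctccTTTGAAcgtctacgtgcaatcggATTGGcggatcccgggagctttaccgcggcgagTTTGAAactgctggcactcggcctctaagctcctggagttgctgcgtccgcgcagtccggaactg
Cdc20: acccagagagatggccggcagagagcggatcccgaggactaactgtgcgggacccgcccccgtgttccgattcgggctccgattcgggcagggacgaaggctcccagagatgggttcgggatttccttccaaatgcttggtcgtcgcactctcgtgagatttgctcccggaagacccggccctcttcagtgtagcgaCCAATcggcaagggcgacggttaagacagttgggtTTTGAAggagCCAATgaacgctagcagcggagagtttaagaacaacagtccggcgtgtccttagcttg

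The Mcm6 promoter held 3 E2F matches, of which those at -110 and -106 from the start overlap on opposite strands, and the Mcm5 promoter held an overlapping pair at -153 and -149. Cdk1 was the one mitosis gene with an E2F match, at -131, and it also held CHR matches at -71 and -15. In Cdc20 a CHR match at -18 lay between CCAAT matches at -53 and -8. A promoter was available for 38 of the 43 genes, and the table held no entry for Mcm4, Gmnn, Ccna2, Cdc25c and Aurkb. E2F letters were found in 9 of 21 S phase promoters (42.9%) and in 1 of 14 mitosis promoters (7.14%), against 704 of all 27025 promoters (2.605%). CHR letters were found in 4 of 21 S phase promoters (19.0%) and in 11 of 14 mitosis promoters (78.6%), against 21.7% of all promoters. Mcm7, with windows at different annotated starts, was counted as holding E2F and CHR letters. Its window at chr5:138171834-138172133 held both and that at chr5:138171217-138171516 held neither. CCAAT was frequent in both sets, in 71.4% of the S phase and 85.7% of the mitosis promoters, against 41.1% of all. The windows of Tyms, Rfc4, Chek1, E2f1, Cdk4, Birc5 and Mad2l1 held none of the 3 motifs in the spellings listed. Sequence outside the window of the annotated start, and other spellings of the motifs, were not searched, so these genes may hold such elements elsewhere. A match describes letters in this window and not binding.

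Intensities below are mean scanner intensities over the beads of a probe, before any correction, always in the order untreated, PD, CH, LIF and PCL. Differences are on the log2 scale after background correction and quantile normalization of the 5 arrays, so they can depart from the ratio of the scanner intensities. Each ± is the bead standard error of the difference, which covers measurement within the arrays and not the spread between cultures. With 1 array per condition no difference had a replicate check and none was tested, and the comparisons with untreated share 1 untreated array. Members past a log2 difference of 0.32 in either direction are counted beside the percentage of all compared genes past the same difference. Genes compared were those detected on at least 1 of the 2 arrays, at a detection p-value under 0.01. In RNA from whole cultures, a larger number of cells in a phase and more RNA per cell cannot be told apart.

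The label of epiblast stem cells was checked against marker genes. All 11 epiblast markers with a probe were detected on every array (Pou5f1, Sox2, Nanog, Fgf5, Otx2, Dnmt3b, Utf1, Tdgf1, Lin28a, Sall4 and Cdh1), with summed scanner intensities of 20793 on the PCL array to 32036 on the LIF array. Of 19 feeder fibroblast markers with a probe, 11 to 13 were detected per array, with sums of 6440 to 8455, and Col1a2, Col3a1, Col5a2, Pdgfrb and Postn were detected on none. The compared feeder markers had a median difference from untreated of 0.31 on the PD array, -0.04 on CH, 0.05 on LIF and -0.04 on PCL. Single feeder markers differed by more: 4 of 13 stood past 2-fold higher with PD, among them Lox at 2.12 ± 0.11 and Timp3 at 1.48 ± 0.15, and 3 of 13 with PCL, among them Timp3 at 1.49 ± 0.15 and Lox at 1.39 ± 0.11. Past 2-fold lower stood 1 feeder marker with each of PD, CH, LIF and PCL. With LIF it was Mgp, at -1.33 ± 0.17. With CH and PCL it was Mgp as well, which was not detected on those arrays. The part of RNA from feeders in the values below was not tested. Between 10389 and 10898 probes were detected per array, and over the detected probes of an array the bead error had a median of 4.13% to 4.39% of the intensity.

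Both groups of genes stood highest on the LIF array and slightly below untreated on the CH and PCL arrays, and the mitosis genes lay further from untreated than the S phase genes in those comparisons. With LIF the median difference from untreated was 0.12 over the 18 S phase genes and 0.42 over the 11 mitosis genes, against 0.05 over all 7796 genes compared. With CH the medians were -0.07 and -0.20, against -0.01 over all genes. With PCL they were -0.10 and -0.16, against 0.00. With PD they were -0.03 and 0.04, against 0.00, and with median scaling of the arrays the S phase median was -0.15. The S phase median minus the mitosis median was -0.30 with LIF and -0.07 with PD, and 0.13 and 0.06 with CH and PCL.

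**Figure D1:**
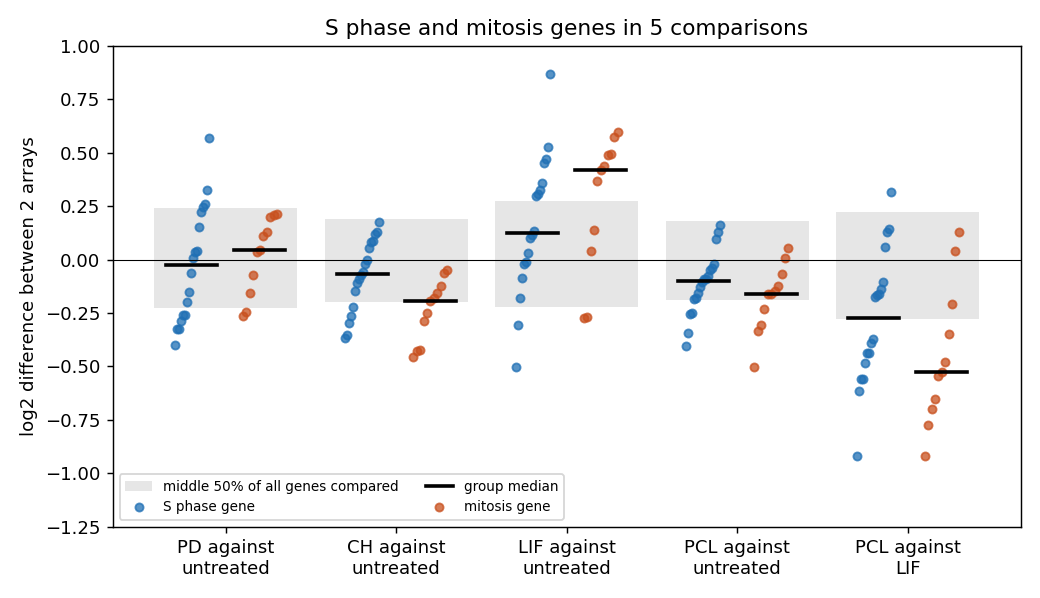
Log2 difference between 2 arrays for each detected S phase gene (blue, 18 genes) and mitosis gene (orange, 11 genes) in 5 comparisons, with the group median as a black bar and the middle 50% of all compared genes as a grey box. With LIF the mitosis median of 0.42 lies above the grey box and the S phase median of 0.12 within it.

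By the brightest probe of each gene, none of the 31 detected members reached 2-fold in any comparison. Over all genes compared, 2-fold was reached by 0.490% higher and 0.451% lower with PD, 0.572% and 0.390% with CH, 0.154% and 2.81% with LIF, and 0.706% and 0.680% with PCL. By more than 0.32 with LIF, 6 of 18 S phase genes and 7 of 11 mitosis genes stood higher, against 19.7% of all genes, and 1 S phase gene and 0 mitosis genes stood lower, against 18.1%. With CH, 0 members of either group stood higher by more than 0.32, against 14.1% of all genes, and 2 S phase and 3 mitosis genes stood lower, against 14.4%. With PCL, 0 of either group stood higher, against 13.4%, and 2 of each group stood lower, against 14.4%. With PD, 2 S phase genes stood higher, against 18.2%, and 3 stood lower, against 17.0%, while 0 mitosis genes passed in either direction. The counts with CH, PD and PCL thus lay near or below the share over all genes for the S phase group, and the LIF count of the mitosis genes lay furthest above it.

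The LIF counts depended on how the arrays were scaled to each other. With the arrays scaled to a common median in place of quantile normalization, 1 S phase gene and 4 mitosis genes stood higher by more than 0.32 with LIF, the mitosis median was 0.15 and the S phase minus mitosis median was -0.11. The split of all genes also moved under that scaling, to 13.1% higher and 22.9% lower with LIF and to 15.3% and 21.6% with PD. Of all 7796 genes compared with LIF, 4302 stood above 0 and 3481 below. Other gene lists had medians above untreated on the LIF array as well. The median was 0.27 over 6 detected reference genes, with 5 above and 1 below 0, and 0.30 over the 11 epiblast markers, with 8 above and 3 below. The reference gene below 0 was B2m, at -0.79 ± 0.08, the largest difference of that list.

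Among the S phase genes, those of the MCM helicase, the ring that opens DNA at origins, stood on the same side of untreated with LIF. All 6 of its subunits in the set and Mcm10, a factor that helps to start the helicase, stood above untreated with LIF, at 0.30 to 0.87 with a median of 0.45. The other 11 detected S phase genes had a median of -0.01 in that comparison. With PD the MCM median was 0.25 and that of the other S phase genes -0.20, with CH the medians were 0.08 and -0.15, and with PCL -0.09 and -0.16.

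Mcm6, a subunit of the helicase ring, had intensities of 1662, 2412, 1677, 2968 and 1452. The LIF array was the highest and the PD array the next, with the other 3 arrays close together. Its difference from untreated was 0.87 ± 0.09 with LIF, 0.57 ± 0.07 with PD, -0.11 ± 0.08 with CH and -0.05 ± 0.09 with PCL. The probes of Mcm6 disagreed: its other detected probes gave 0.51 and -0.10 with LIF and 0.22 and -0.23 with PD, so its size rests on the brightest of 3 probes. With the mean over detected probes, Mcm6 stood at 0.43 with LIF and at 0.19 with PD.

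Mcm5 had intensities of 4394, 4362, 4973, 5615 and 3670.5. LIF was again the highest array, and the PD and untreated arrays were close. The differences of Mcm5 were 0.01 ± 0.06 under PD, 0.09 ± 0.06 under CH, 0.52 ± 0.06 under LIF and -0.09 ± 0.06 under PCL. Under median scaling the LIF value of this bright gene was 0.10.

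Mcm4 had intensities of 5101, 6232, 6167, 6668 and 5011, and Mcm2, which carries a histone-binding tail, had 1529.7, 1747, 1779, 2121 and 1287. In both genes the PD, CH and LIF arrays were above the untreated array and LIF was the highest. Mcm4 differed from untreated by 0.47 ± 0.07 on the LIF array, 0.33 ± 0.06 on PD, 0.17 ± 0.06 on CH and 0.10 ± 0.06 on PCL. Other probes of Mcm4 gave 0.65 and 0.20 with LIF but 0.02 and -0.13 with PD. Under median scaling Mcm4 was at 0.14 with LIF and 0.15 with PD, and Mcm2 was at 0.23 with LIF. Mcm2 differed by 0.25 ± 0.06, 0.13 ± 0.07, 0.45 ± 0.06 and -0.10 ± 0.06 with PD, CH, LIF and PCL.

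Mcm3 and Mcm7 differed from the other subunits on the PD array. Mcm3 had intensities of 922, 878, 949, 1215 and 811, with differences of -0.15 ± 0.09 with PD and 0.30 ± 0.10 with LIF. Mcm7 had intensities of 867, 774, 911, 1144 and 689, with differences of -0.26 ± 0.11 with PD and 0.31 ± 0.10 with LIF. For both genes PD gave the lowest of the 5 normalized levels and LIF the highest, but for Mcm7 the PCL array was level with PD, at -0.25 ± 0.11. Mcm10 had intensities of 1588, 1843, 1799, 2080.1 and 1364 and stood at 0.26 ± 0.07 with PD and 0.36 ± 0.06 with LIF, but its other detected probe gave -0.46 and -0.02, and under median scaling its LIF value was 0.15.

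The factors that load the helicase did not follow it as a group. Cdt1, which brings the MCM ring to origins, had intensities of 2176, 1715, 2221, 2749.9 and 1799. It was lowest with PD, at -0.33 ± 0.08, and highest with LIF, at 0.33 ± 0.07. Under median scaling Cdt1 was at -0.50 with PD and 0.09 with LIF. Cdc6, the ATPase that works with Cdt1 in loading, stood between -0.25 ± 0.14 with PCL and -0.06 ± 0.13 with PD, and all 4 differences were below 0. Orc6, a subunit of the origin recognition complex, stayed within -0.02 ± 0.06 with CH and 0.12 ± 0.06 with LIF.

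Cdc45, which joins the MCM ring to form the active helicase, had intensities of 436, 418, 392, 449 and 343. After normalization it stood highest on the untreated array and lowest on the CH array. Its differences were -0.18 ± 0.12 with LIF, -0.20 ± 0.13 with PD, -0.37 ± 0.12 with CH and -0.34 ± 0.13 with PCL.

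Of the polymerase, clamp and clamp loader genes, 2 of 5 were measured. Rfc4, a subunit of the loader that opens the clamp, had intensities of 633, 551, 583, 725 and 470.3. Its differences were -0.33 ± 0.13 under PD, -0.30 ± 0.12 under CH, 0.03 ± 0.14 under LIF and -0.41 ± 0.13 under PCL. Pcna, the sliding clamp itself, was dim on this array, with intensities of 137, 135, 133, 127 and 128 where the lowest intensities of the arrays were 67.6 to 71.4. It stood at -0.50 ± 0.19 with LIF, the lowest value of any member there, and the bead errors of its other 3 differences were 0.19 to 0.20. Without background correction the LIF value of Pcna was -0.22. Pola1 and Prim1, subunits of the primase complex, were detected on no array, and Rfc3 had no named probe.

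The genes of nucleotide supply did not stand together. Tyms, thymidylate synthase, had intensities of 1323, 1029, 1431, 1146 and 1065. The PD, LIF and PCL arrays were below untreated and the CH array was not, with differences of -0.31 ± 0.09 on the LIF array, -0.40 ± 0.08 on PD, 0.00 ± 0.09 on CH and -0.18 ± 0.10 on PCL. The other probes of Tyms gave -0.62 and -0.49 with PD, and with CH one of them gave -0.44 and the other 0.02. Rrm1 and Rrm2, the subunits of ribonucleotide reductase, stayed within -0.01 ± 0.09 and 0.22 ± 0.11 in all 4 comparisons. Tyms is therefore the nucleotide gene with the largest difference, and LIF placed it below untreated while the MCM genes stood above.

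The kinase Chek1, which slows the cycle when replication stalls, was dim, and its brightest probe gave differences of -0.15 ± 0.16 to 0.15 ± 0.19. Another Chek1 probe, detected on 4 arrays, gave 0.50 ± 0.18 with LIF, 0.47 ± 0.23 with PD and -0.33 ± 0.24 with CH. E2f1, one of the E2F factors, had intensities of 811, 719, 750.1, 867 and 701. It stood at -0.02 ± 0.06 with LIF, -0.26 ± 0.07 with PD, -0.27 ± 0.09 with CH and -0.13 ± 0.08 with PCL. The LIF array, on which the MCM genes were highest, was thus close to untreated in E2f1. Gmnn, which holds Cdt1 in check, and Orc1 were detected on no array.

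Of the genes of the step from G1 into S phase, Cdc25a, the phosphatase that frees Cdk2 from inhibition, stood above untreated on all 4 arrays. Its intensities were 332, 394, 438, 462 and 410.0, and its differences were 0.18 ± 0.11 under PD, 0.30 ± 0.11 under CH, 0.34 ± 0.11 under LIF and 0.43 ± 0.11 under PCL. It was the only detected member that stood higher by more than 0.32 with PCL. Cdk2, the kinase that starts replication, stood at 0.20 ± 0.06 with PD and 0.20 ± 0.07 with LIF and at -0.15 ± 0.07 with PCL, and 1 of its other 3 detected probes gave -0.47 with PD. Cdk4 had no named probe.

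The mitosis genes divided into a majority that stood above untreated with LIF and a minority that did not. Higher by more than 0.32 with LIF were Cdk1, Cdc25b, Plk1, Aurka, Cdc20, Bub1b and Top2a. Kif11 was above untreated by about its bead error, Mad2l1 was level with it, and Cdc25c and Birc5 were below it. With CH all 11 stood below untreated, at -0.46 to -0.05, where 3942 of all 7699 genes compared stood below it.

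Cdk1, the kinase that drives entry into mitosis, had intensities of 1542, 1715, 1440.4, 2301 and 1277. The LIF array stood clear of the other 4. Its differences were 0.57 ± 0.08 on the LIF array, 0.20 ± 0.08 on PD, -0.20 ± 0.08 on CH and -0.13 ± 0.08 on PCL. Under median scaling Cdk1 was at 0.34 with LIF. Top2a, the topoisomerase that untangles sister chromatids, had intensities of 2189.7, 2507, 2224, 3295 and 2052. It followed the same order at the top, with LIF at 0.60 ± 0.07 and PD at 0.21 ± 0.09, and stood at -0.06 ± 0.08 with CH and 0.05 ± 0.07 with PCL. Under median scaling its LIF value was 0.35.

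The mitotic kinases Aurka and Plk1, which build and mature the spindle poles, were also highest with LIF. Aurka had intensities of 1701, 1883, 1691, 2403 and 1540.1, and Plk1 had 1576, 1596, 1639, 2062 and 1278. Aurka stood at 0.49 ± 0.07 with LIF, 0.21 ± 0.08 with PD, -0.12 ± 0.08 with CH and 0.01 ± 0.08 with PCL. Plk1 stood at 0.04 ± 0.07, -0.05 ± 0.08, 0.37 ± 0.07 and -0.16 ± 0.08 with PD, CH, LIF and PCL. Under median scaling the LIF values were 0.26 for Aurka and 0.15 for Plk1.

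The spindle checkpoint delays anaphase until every chromosome is attached, and its end point is Cdc20, the activator of the anaphase-promoting complex. Cdc20 had intensities of 4611, 4338, 4060.1, 5532 and 2954. The PCL array was the lowest by a wide margin and LIF the highest, a span of 0.92 on the log2 scale. The differences of Cdc20 were -0.07 ± 0.06 under PD, -0.25 ± 0.06 under CH, 0.42 ± 0.06 under LIF and -0.50 ± 0.06 under PCL. Its 4 detected probes agreed in sign outside the PD array, at 0.24 to 0.81 with LIF, -0.50 to -0.21 with CH and -0.57 to -0.27 with PCL. Under median scaling the brightest probe gave 0.01 with LIF and -0.62 with PCL.

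Mad2l1, which holds Cdc20 inactive while the checkpoint is on, had intensities of 1238, 1116, 989, 1337 and 920.4. It stood level with untreated under LIF, at 0.04 ± 0.08, and below it with CH at -0.46 ± 0.08 and with PCL at -0.31 ± 0.07. Bub1b, another checkpoint protein, had intensities of 541, 592, 539, 819 and 471. It stood at 0.49 ± 0.12 on the LIF array, 0.03 ± 0.12 on PD, -0.18 ± 0.11 on CH and -0.16 ± 0.11 on PCL. Bub1 was detected on no array.

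Birc5, the survivin subunit of the chromosomal passenger complex, had intensities of 1976, 1644, 1764, 1695 and 1645. The untreated array was the highest, and the differences were -0.27 ± 0.07 with LIF, -0.27 ± 0.08 with PD, -0.29 ± 0.07 with CH and -0.15 ± 0.09 with PCL. All 3 of its detected probes were below untreated with LIF, at -0.30 to -0.25, while with CH they gave 0.02, -0.29 and -0.31. Kif11, the motor that pushes spindle poles apart, stayed between -0.16 ± 0.12 with CH and 0.14 ± 0.12 with LIF.

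The Cdc25 phosphatases of mitosis, which activate Cdk1, were dim. Cdc25c had intensities of 238, 229.5, 215, 236 and 209 and stood below untreated in all 4 comparisons, at -0.42 ± 0.15 with CH and at -0.27 ± 0.15 to -0.23 ± 0.13 in the others. Its other detected probe gave -0.17 ± 0.17 with CH and -0.06 ± 0.16 with PCL, and the mean over both gave -0.30 with CH, which takes Cdc25c out of the count of genes lower by more than 0.32. Cdc25b had intensities of 99.0, 109, 96.5, 119 and 93.4 and was not well above background on the CH and PCL arrays, so no fold is given there, and its count among the genes lower by more than 0.32 with CH and with PCL rests on measured values of -0.43 and -0.34. Its LIF value was 0.44 ± 0.24. Ccna2 and Ccnb2, cyclins that pair with Cdk1, were detected on no array, and Ccnb1, Aurkb and Mki67 had no named probe.

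**Figure D2:**
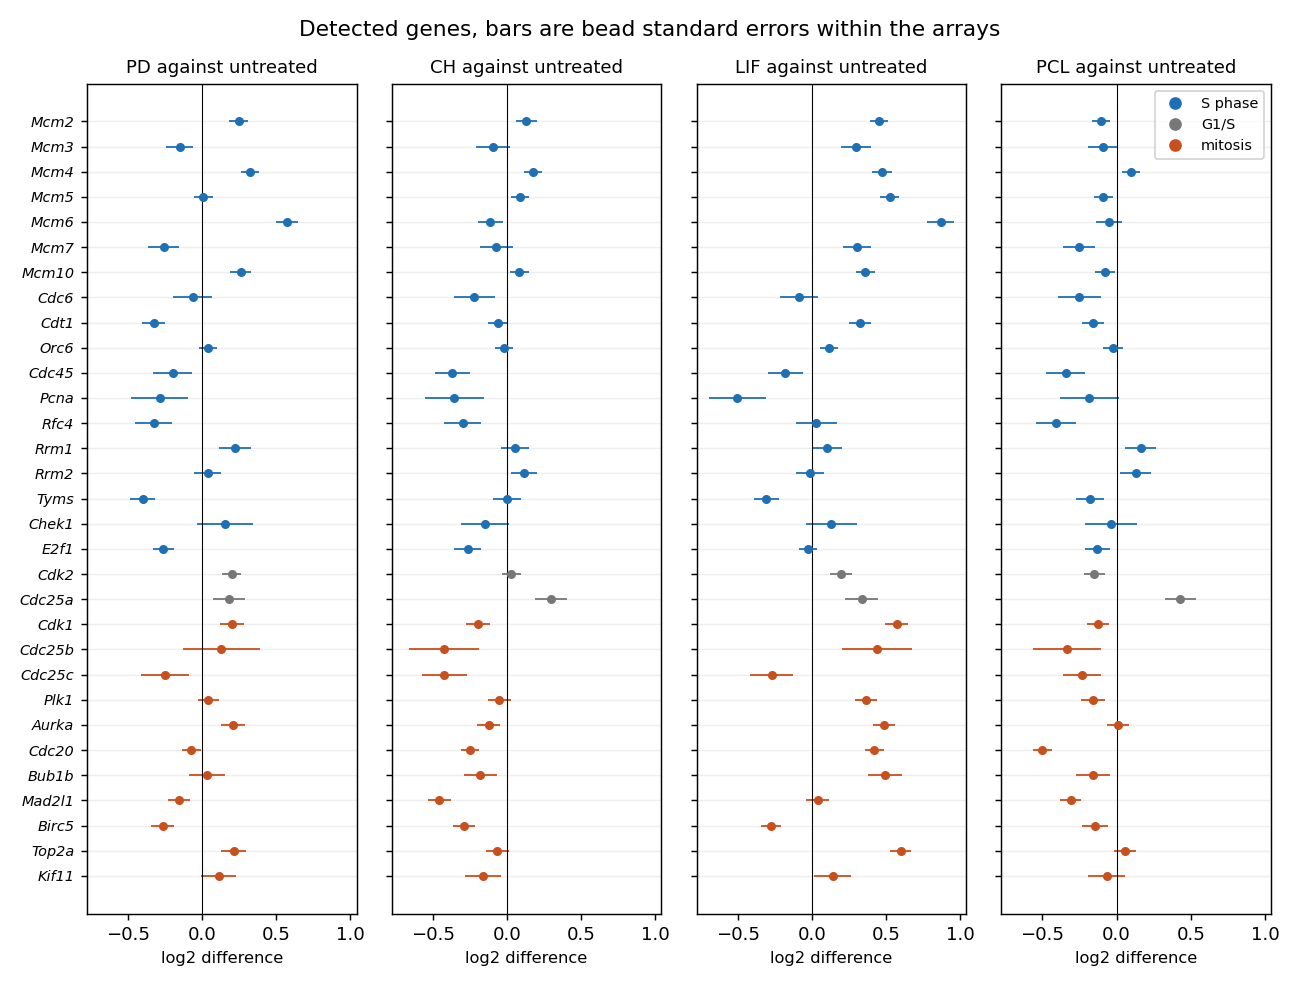
Log2 difference from untreated of the 31 detected genes in 4 panels, one per treatment, with the bead standard error within the arrays as a bar. The MCM genes and most mitosis genes lie right of 0 in the LIF panel, and all 11 mitosis genes lie left of 0 in the CH panel.

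**Figure D3:**
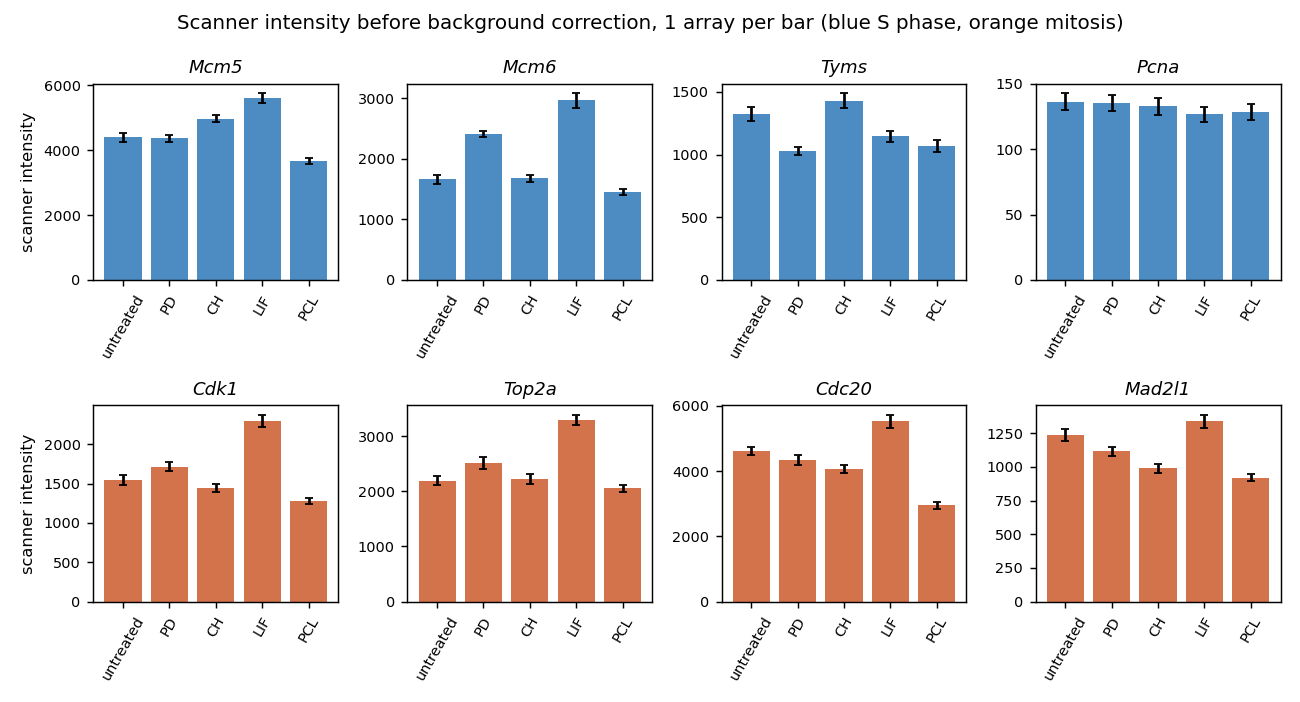
Scanner intensity of 8 genes on the 5 arrays before background correction, 1 bar per array from a baseline of 0, with the standard error over beads. LIF is the highest bar for Mcm5, Mcm6, Cdk1, Top2a, Cdc20 and Mad2l1 and the lowest for Pcna, and Tyms is highest with CH.

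Because the comparisons with untreated share an array, the order of all 5 arrays within each gene was also read. Over the 6732 genes detected on all 5 arrays, LIF was the highest array for 27.9%, PCL the lowest for 17.4% and CH the lowest for 19.4%. LIF was the highest for 10 of 18 S phase genes and for 8 of 10 mitosis genes detected on all 5 arrays. CH was the lowest for 4 of 18 S phase genes and for 8 of 10 mitosis genes, and PCL for 6 of 18 and 2 of 10. Each end, LIF at the top or CH at the bottom, was thus more frequent among the mitosis genes than the S phase genes, but not always in the same gene. Cdc20 and Plk1 were highest with LIF and lowest with PCL, while Cdc25c and Birc5 were highest untreated and lowest with CH. The difference between the groups was not tested.

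The PCL culture received LIF at the same dose as the LIF culture, with PD and CH added, and the direct comparison of these 2 arrays does not use the untreated array. Members stood lower with PCL than with LIF: the median was -0.27 over the S phase genes and -0.53 over the mitosis genes, against -0.05 over all 7712 genes compared. Lower by more than 0.32 were 9 of 18 S phase genes and 8 of 11 mitosis genes, against 21.3% of all genes, and 0 members stood higher by more than 0.32, against 19.0%. Past 2-fold, 0 members stood higher or lower by their brightest probe, against 3.02% and 0.882% of all genes. Another detected probe of Cdc20 gave -1.08 ± 0.09. The 7 MCM genes had a median of -0.56, and all 7 stood lower by more than 0.32, of which Mcm4 was at -0.13 under median scaling. Other lists differed between these arrays too: the epiblast markers had a median of -0.64, with 8 of 11 lower by more than 0.32, and 5 of 6 reference genes were below 0 with a median of -0.23. The compared feeder markers had a median of 0.13, with 3 of 13 past 2-fold higher, Col1a1 at 1.39 ± 0.18, Lox at 1.07 ± 0.10 and Timp3 at 1.04 ± 0.13. The part of these lists in the members' values was not tested.

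Mcm6 and Cdc20 had the largest measured values of that comparison, at -0.92 ± 0.08 and -0.92 ± 0.07. The other probes of Mcm6 gave -0.55 and -0.12, and the 4 probes of Cdc20 gave -1.08 to -0.65. Cdk1 stood at -0.70 ± 0.07, Bub1b at -0.65 ± 0.10, Mcm5 at -0.61 ± 0.06, Top2a at -0.54 ± 0.06 and Plk1 at -0.53 ± 0.08. Cdc25b, not detected with PCL, was at least 1.30-fold lower there than with LIF in the main processing, bead error aside. Over the settings tried its log2 difference ran from -1.37 to -0.24. Pcna, Birc5, Tyms and Rrm2 were among the members above 0, at 0.32 ± 0.20, 0.13 ± 0.08, 0.13 ± 0.09 and 0.14 ± 0.10. Under median scaling the group medians were -0.18 and -0.41, and 8 to 9 S phase genes and 7 to 8 mitosis genes stood lower by more than 0.32 over all settings tried.

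The promoter letters can be set beside the LIF values as a description. The 6 compared S phase genes with an E2F match (Mcm3, Mcm5, Mcm6, Mcm7, Cdc6 and Cdt1) had a median of 0.32 with LIF, from -0.09 to 0.87, and the 11 without had a median of 0.03, from -0.50 to 0.45. The other comparisons with untreated did not show this order: the medians with and without a match were -0.11 and 0.04 with PD, -0.08 and -0.02 with CH, and -0.13 and -0.10 with PCL. Most genes with a match are MCM genes, so the LIF values overlap with those of the MCM group above. The 8 compared mitosis genes with a CHR match stood at 0.14 to 0.60 with LIF, with a median of 0.46. Mad2l1 and Birc5, the compared mitosis genes with no CHR match, were at 0.04 and -0.27. This order was not particular to LIF. The medians with and without a CHR match were 0.12 and -0.21 with PD, -0.17 and -0.37 with CH, and -0.14 and -0.23 with PCL. Some genes go against the letters: Mcm2 held no E2F match and stood at 0.45, while Cdc6 held one and stood at -0.09. Mcm10, at 0.36, held no E2F match either, but its window ends in ttttttggcg, so a match that runs past the window could not be read. The same limit holds for Chek1, at 0.13 from its brightest probe, whose window ends in gcgggaa.

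The differences also varied with the length of genes in every comparison, most widely with LIF among those with untreated, so the span of the members was read. The genomic span, introns included, had a median of 15770.5 bp over the detected S phase genes and 14697 bp over the detected mitosis genes, against 21096.5 bp over 8132 genes. With all genes split into 10 groups of equal size by span, the LIF median ran from -0.32 in the shortest group to 0.18 in the ninth. Between the same groups the median ran from -0.15 to 0.17 with PD, -0.13 to 0.08 with CH and -0.06 to 0.05 with PCL. With PCL against LIF the trend was reversed, from 0.28 to -0.12. Cdc20, at 4443 bp, stood above its group and Pcna, at 3895 bp, lay in the shortest. With the median of its own span group subtracted, Pcna stood at -0.18, Cdc20 at 0.54 and Mcm6 at 0.77 with LIF.

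**Figure D4:**
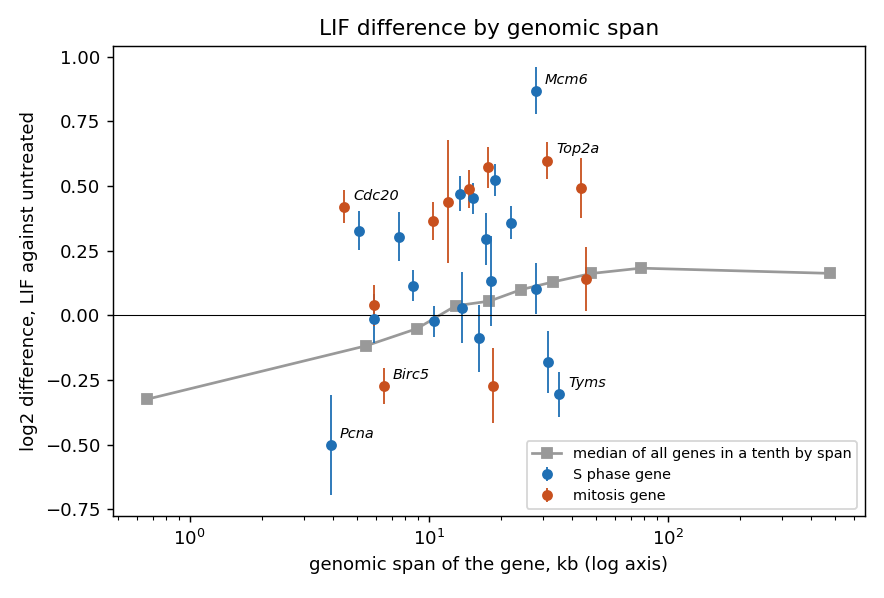
Log2 difference of the LIF array from untreated against the genomic span of the gene in kb on a log axis, for S phase genes (blue) and mitosis genes (orange) with bead standard errors, and the median of all genes in each of 10 groups by span as a grey line. The grey line runs from -0.32 to 0.18, with Mcm6, Top2a and Cdc20 above it and Pcna, Birc5 and Tyms below it.

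Genes of the same pathways that are not members were read as well. Of 45 other S phase genes, 34 were compared with LIF: their median was 0.16, with 24 above and 10 below 0, with 6 higher by more than 0.32 (19.7% of all genes) and 3 lower (18.1% of all genes), so the higher count was near the share over all genes. Uhrf1, which reads methylation on newly copied DNA, had 0.57 ± 0.07 from its brightest probe and 0.20 from another, and Rpa3 and Pole3, small subunits of the single-strand binding complex and of polymerase epsilon, stood at -1.06 ± 0.08 and -0.83 ± 0.16. Of 57 other mitosis genes, 35 were compared: their median was 0.20 with LIF, with 27 above and 8 below 0. By more than 0.32, 9 stood higher and 5 lower, against the same shares. This higher count lay nearer to the share over all genes than that of the member mitosis genes, 7 of 11. Of all 7796 genes compared, 4302 stood above 0 and 3481 below. Prc1, which bundles the central spindle, stood at 0.79 ± 0.05, and Spc24 and Pttg1, a kinetochore subunit and the securin, at -1.19 ± 0.14 and -0.72 ± 0.18.

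With CH, 28 of the 35 other mitosis genes stood below untreated with a median of -0.13, and Pttg1 had the largest difference at -0.86 ± 0.20. With PCL, 28 of 35 stood below with a median of -0.18. Of all genes compared, 3942 of 7699 stood below untreated with CH and 3860 of 7652 with PCL. The other S phase genes stayed nearer to untreated, with medians of -0.04 in both comparisons. With PCL against LIF, 20 of 35 other mitosis genes and 10 of 34 other S phase genes stood lower by more than 0.32, against 21.3% of all genes, with medians of -0.37 and -0.17. The median of the other mitosis genes lay further from 0 than that of the other S phase genes with CH, with PCL and with PCL against LIF. With LIF the medians, 0.20 and 0.16, were closest to each other, beside median bead errors of 0.11 and 0.09. These differences were not tested.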

How the data were processed

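For each array the authors deposited, per the file headers, the mean bead intensity, its bead standard error and a detection p-value of 25697 probes. The deposited intensity is linear and still contains background, as its lowest values of 67.6 to 71.4 show. The submitters' processing notes name BeadStudio, with no version given in the sources used here. A table of intensity values processed by the authors, in which 51.1% of the untreated entries are null and whose scaling is not stated, served as an alternative only.

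Background correction, an offset of 16 and quantile normalization came from neqc (limma 3.58.1, R 4.3.3), which inferred the background from the detection p-values. This offset shrinks the differences of dim probes. Detection meant a p-value under 0.01. Platform annotation gave 23978 probes 1 gene and 1719 none, and 23962 matched RefSeq GRCm38.p6. The probe of highest mean level stood for each of the 4777 genes with several. Bead errors were carried to the log2 scale without regard to the quantile step. Each condition had 1 array, so no p-value was computed across genes and the number of arrays limits the precision. The members and lists were chosen with earlier results of these data known. All 43 members are accounted for, and from each other list up to 3 genes could be named per comparison, those with the largest difference past 0.32 on the log2 scale. Probe sequences were not used here. The scripts were tested on simulated data. Tables were made in Python 3.11.15 with numpy 2.4.6 and pandas 2.3.3, and the plots in matplotlib 3.10.9.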

Additional observations from a re-analysis of the deposited data

How the results depend on the processing

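Group medians, counts and single members were recomputed without background correction, with offsets of 1 and 50, with median scaling, from the authors' processed values, with other detection filters, with the mean over probes, by span, against the mean of arrays without the agent, and with the G1 to S genes added to the S phase genes. Leaving out members detected on 1 of the 2 arrays, and all alternatives for PCL against LIF, were added after the data were seen. A group median was taken as moved past the median bead error of the members, a single member past its own bead error, and a count past 1.5 times. Of the group values, 217 stayed within that and 16 moved, and of the single members' values 470 stayed and 80 moved. Under median scaling the S phase median was -0.15 with PD and -0.20 with PCL, and the mitosis median was 0.15 with LIF and -0.25 with PCL. The S phase minus mitosis median with LIF was -0.11 there, and 1 S phase and 4 mitosis genes stood past a log2 difference of 0.32 higher in place of 6 and 7. For PCL against LIF the medians under median scaling were -0.18 and -0.41. Without a detection filter the mitosis median with LIF was 0.25 and the S phase minus mitosis median -0.14, and PCL against LIF gave -0.16 and -0.41. Against the mean of arrays without the agent, the S phase minus mitosis median was 0.017 with PD, and with CH the mitosis median was -0.35 and the S phase minus mitosis median 0.26. The signs of the CH, LIF and PCL medians were the same in all settings, and the PD medians took both signs. With LIF, Cdc20 ran from 0.01 to 0.54 over the settings and Mcm5 from 0.10 to 0.53. The cause of these shifts was not tested. No paired analysis was possible because each condition had 1 array, and for the same reason no array could be left out. Signal over background limits Pcna, Cdc25b and Chek1, whose bead errors reach 0.16 to 0.26.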

Other observations

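Genes that restrain the cell cycle were read beside the members, as 22 genes of cyclin-dependent kinase inhibitors, the Rb family and the E2F family, of which 17 or 18 were compared. Their medians were close to untreated, at 0.08 with LIF and at -0.03, -0.10 and -0.07 with PD, CH and PCL. Cdkn1a, the inhibitor p21, stood at 0.49 ± 0.07 with CH and 0.84 ± 0.07 with PCL, and its other probes gave 0.22 to 0.51 and 0.45 to 1.00. Cdkn1b, the inhibitor p27, stood at 0.81 ± 0.19 with PD and 0.63 ± 0.18 with LIF. Cdkn2d, an inhibitor of the G1 kinases, stood at -0.51 ± 0.22 with PD, -0.72 ± 0.22 with CH and -0.64 ± 0.21 with PCL. Cdkn2a stood at -0.86 ± 0.18 with LIF. Tfdp2, a partner of the E2F factors, stood at -0.70 ± 0.20 with CH and -0.70 ± 0.15 with PCL, with all of its detected probes below untreated there. It stood at 0.46 ± 0.14 with PD and 0.47 ± 0.12 with LIF, where its other probes gave -0.35 to 0.15 and 0.05 to 0.11.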
